A study of Mus musculus with 12 samples.

Results

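Peroxiredoxins and the thioredoxin system were described here by 10 genes, taken by symbol from the table of read counts: Prdx1, Prdx2, Prdx3, Prdx4, Prdx5, Prdx6, Txn1, Txn2, Txnrd1 and Txnrd2. All 10 were among the 14089 genes of the table and all 10 passed the filter on low counts. Peroxiredoxins are thiol peroxidases: a cysteine at the active site is oxidised by hydrogen peroxide, peroxynitrite or organic peroxides and is then reduced again. Thioredoxin supplies the electrons to most of them, and thioredoxin reductase, a selenoenzyme, recharges thioredoxin with electrons from NADPH. Islet β cells are known for low catalase and glutathione peroxidase activity, and the peroxiredoxin and thioredoxin route is regarded as a main path for removing peroxide in them.

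Isolated islets of C57BL/6J mice were cultured for 24 hours in 4 groups of 3 libraries: with vehicle, with ML351 at 10 µM, with cytokines (5 ng/ml of IL-1β, 10 ng/ml of TNF-α and 100 ng/ml of IFN-γ), or with the cytokines and ML351 together, called the combination here. ML351 blocks 12/15-lipoxygenase, which adds oxygen to polyunsaturated fatty acids, and the study asks what its inhibition does under the oxidative stress of inflammation. The labels name no genetic change in any group. Whether replicate libraries stem from different mice or islet cultures is not stated in the labels, and p-values therefore rest on a spread between samples that may be technical only.

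Library totals ran from 20208286 to 27193026 counts. The summed level of 10 β cell markers was between 257300 and 379900 CPM (counts scaled to a common library size) in every library, so the islet label held. The 17 acinar markers in the table summed to 168 to 658 CPM with vehicle, 102 to 273 with ML351, 43.2 to 915 with cytokines and 1069 to 1585 with the combination, with none of them at 0 in any library. The 6 α cell markers summed to 34930 to 39100 CPM with vehicle and 723 to 1354 with cytokines, and the 9 macrophage markers to 211 to 217 CPM and 308 to 332 CPM. The 7 ductal markers in the table summed to 798 to 964 CPM with vehicle and 1761 to 2328 with cytokines. Lower sums with cytokines than with vehicle were also found for 4 δ cell markers (1438 to 1503 against 99.6 to 145 CPM), 2 PP cell markers (10400 to 11790 against 796 to 1410), 8 endothelial markers (81.1 to 90.5 against 15.5 to 21.5) and 8 stellate cell and fibroblast markers (108 to 340 against 44 to 70.5). With ML351 alone the PP markers were at 4152 to 9679 CPM. In whole islets, fewer cells of a type and less RNA per cell cannot be told apart, and the part of these cell types in the results on the 10 genes was not tested.

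The genes lie on several chromosomes of the GRCm38 build, with gene bounds from GENCODE M21. Prdx1 (chr4:116685544-116700822) and Prdx2 (chr8:84969587-84974834) encode cytosolic peroxiredoxins, Prdx3 (chr19:60864051-60874556) the mitochondrial one and Prdx4 (chrX:155323918-155340754) the one of the endoplasmic reticulum (ER). These 4 are typical 2-cysteine enzymes. Prdx5 (chr19:6906697-6910106) encodes an atypical 2-cysteine enzyme found in mitochondria, peroxisomes and cytosol, and Prdx6 (chr1:161240112-161251219) a 1-cysteine enzyme that also has phospholipase activity. Cytosolic thioredoxin is encoded by Txn1 (chr4:57943373-57956411) and its reductase by Txnrd1 (chr10:82833951-82897712), the mitochondrial pair by Txn2 (chr15:77915047-77929006) and Txnrd2 (chr16:18426384-18479073).

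The coding sequence around each active site is shown so that the responses below can be read by the class of enzyme. The windows were read from GENCODE M21 transcripts, 5′ to 3′, and the capitals mark the codon of the peroxidatic cysteine, which is codon 52 in Prdx1, 51 in Prdx2, 109 in Prdx3, 127 in Prdx4, 96 in Prdx5 and 47 in Prdx6.
Prdx1: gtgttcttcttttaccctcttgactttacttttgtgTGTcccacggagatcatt
Prdx2: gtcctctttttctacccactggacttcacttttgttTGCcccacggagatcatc
Prdx3: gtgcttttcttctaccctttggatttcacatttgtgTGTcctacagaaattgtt
Prdx4: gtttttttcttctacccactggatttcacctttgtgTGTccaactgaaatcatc
Prdx5: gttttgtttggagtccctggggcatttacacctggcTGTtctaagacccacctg
Prdx6: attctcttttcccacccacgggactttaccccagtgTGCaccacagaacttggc

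In the thioredoxins the capitals mark the codons of both active-site cysteines, the first of which is codon 32 in Txn1 and 90 in Txn2. In the reductases they mark the codon of the redox-active cysteine, 497 in Txnrd1 and 525 in Txnrd2, and directly after it the TGA that is read as selenocysteine, the residue before the last.
Txn1: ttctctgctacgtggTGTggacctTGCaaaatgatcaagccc
Txn2: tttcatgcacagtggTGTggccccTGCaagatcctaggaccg
Txnrd1: gacatcctccagtctggcTGCTGAggt
Txnrd2: gagcctactgtgactggtTGCTGAggc

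In vehicle islets Prdx1 was the most abundant transcript of the system relative to its length, at 114.5 ± 2.38 CPM per kb of exon (SD, n = 3, all exons of the gene merged). Prdx2 followed at 54.8 ± 3.06 and Txn1 at 52.9 ± 1.82 CPM per kb, and their ranges overlapped. Txnrd1 was at 45.6 ± 1.76 CPM per kb, and below it Prdx6 at 41.3 ± 0.319 and Prdx3 at 40.95 ± 2.4 CPM per kb overlapped with each other. Prdx5 (26.9 ± 1.61 CPM per kb) and Txn2 (26.2 ± 0.369 CPM per kb) overlapped too. Prdx4, at 12.2 ± 1.26 CPM per kb, and Txnrd2, at 3.68 ± 0.466 CPM per kb, were the lowest, each apart from its neighbour in the order. The mitochondrial reductase transcript was therefore the least abundant and the ER peroxiredoxin the next. The length used matters for the middle of this order. Per kb of the longest principal coding transcript, a length chosen after the data were seen, vehicle levels were 151.9 CPM per kb for Prdx1, 103.7 for Prdx2, 91.5 for Txnrd1 and 83.1 for Prdx6, while Txn1 stood sixth at 52.9 CPM per kb. With cytokines the order per kb of merged exons was Prdx1, Txn1 (71.8 CPM per kb) and Prdx6 (65.6), each apart from the next, and then Txnrd1, Prdx2 and Prdx5, which overlapped with their neighbours. The first place of Prdx1 and the last places of Prdx4 and Txnrd2 were held with both lengths in all 4 groups.

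**Figure D1:**
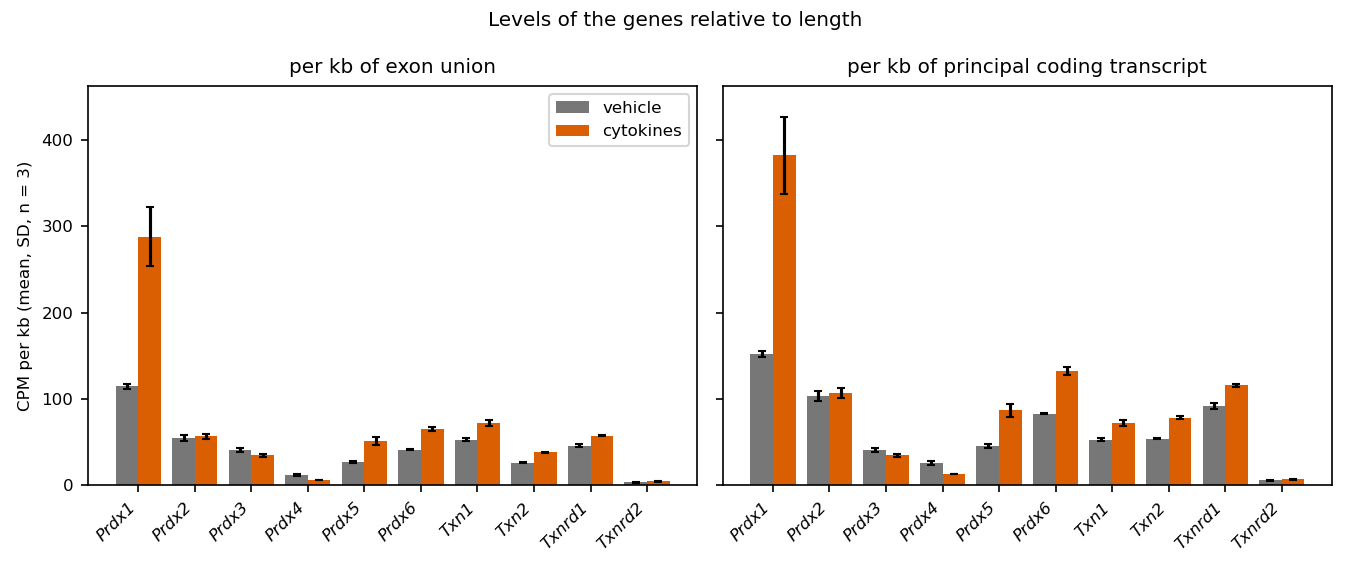
Mean level of each gene in CPM per kb (bars from 0; error bars are SD, n = 3) with vehicle and with cytokines, per kb of merged exons at left and per kb of the longest principal coding transcript at right. Prdx1 stands highest in both panels and reaches 288.1 CPM per kb of merged exons with cytokines, and Txnrd2 is lowest.

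Cytokines raised 7 of the 10 transcripts, lowered 2 and left 1 without a call. Prdx1 (2.52-fold), Prdx5 (1.90-fold), Prdx6 (1.59-fold), Txn2 (1.45-fold), Txn1 (1.36-fold), Txnrd1 and Txnrd2 (1.27-fold each) rose, Prdx4 fell to 0.508 of its vehicle level and Prdx3 to 0.846. Prdx2 did not pass the test. The libraries of the groups did not overlap for 9 of the 10 genes. Calls are at an adjusted p under 0.05 by edgeR's quasi-likelihood test. Most of the transcriptome was called in this comparison: 72.5% of all genes, 35.3% higher and 37.2% lower, and the CPM of the groups did not overlap for 76.6%. A call by itself therefore does not set these genes apart. Their median log2 fold change was 0.39, against -0.02 over all genes, and the median size of their change, 0.49, was smaller than that of all genes, 0.68.

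**Figure D2:**
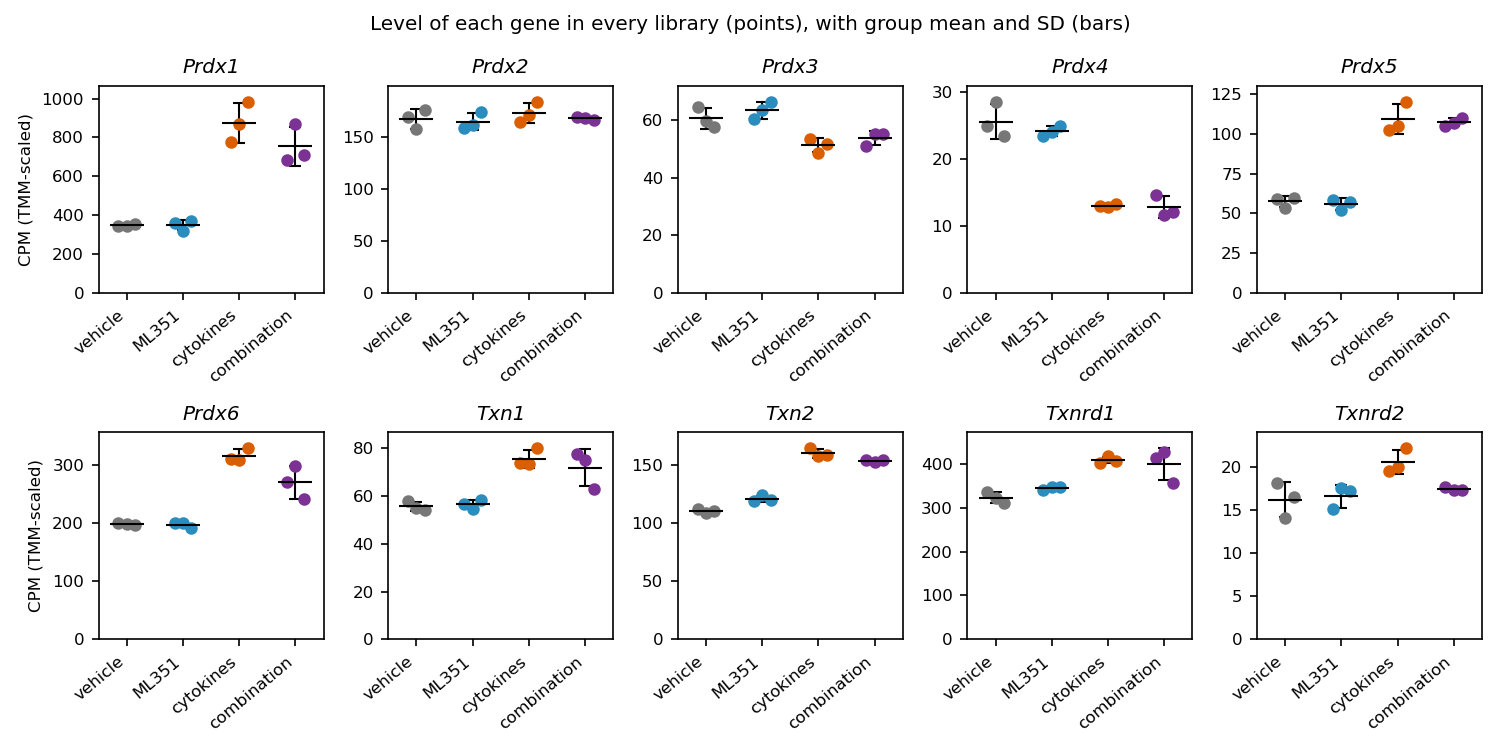
CPM of each gene in the 12 libraries (points, in the order of their replicate numbers), with the group mean and SD (black, n = 3); every axis starts at 0. With cytokines or the combination, the points of Prdx1 and Prdx5 lie above, and those of Prdx4 below, all points of the vehicle and ML351 groups, and those of Prdx2 overlap in all groups.

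Among the cytosolic peroxiredoxins, Prdx1 and Prdx2 parted. Prdx1 was at 344.6, 343.8 and 356.7 CPM in vehicle replicates 1, 2 and 4 and at 777.5, 870.0 and 982.9 CPM in cytokine replicates 1, 3 and 4. Every cytokine library was above every vehicle library, and the cytokine libraries also spread more. The log2 fold change was 1.33 (SE 0.0964, 95% interval 1.12 to 1.54, edgeR adjusted p = 1.2e-08), the largest rise of the 10, and 76.5% of all genes changed by less.

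Prdx2 was at 168.9, 157.0 and 175.4 CPM with vehicle and at 164.4, 171.3 and 183.4 CPM with cytokines. These ranges overlapped, and the log2 fold change was 0.05 (SE 0.0601, adjusted p = 0.47). The interval, -0.08 to 0.18, leaves room for a change of up to about 1.13-fold upward. Its sign turned with the scaling: it was -0.07 with upper quartile scaling and -0.02 with library totals alone. Of the Prdx2 exons, 177 bases also belong to Rnaseh2a and 173 to Junb on the opposite strand, and the libraries do not record strand.

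Prdx6, whose single catalytic cysteine is recharged by glutathione rather than by thioredoxin, was at 200.2, 197.9 and 197.3 CPM with vehicle. With cytokines it was at 309.9, 307.5 and 328.2 CPM, far outside the narrow vehicle range. The log2 fold change was 0.67 (SE 0.0651, adjusted p = 6.4e-08).

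The transcripts of the organelle peroxiredoxins moved apart as well. Prdx5 was at 59.2, 53.6 and 59.9 CPM with vehicle and at 102.8, 105.2 and 120.2 CPM with cytokines. All cytokine libraries were above all vehicle libraries, with a log2 fold change of 0.93 (SE 0.0718, adjusted p = 3.1e-09). On the opposite strand Trmt112 shares 409 bases, 19.1%, of the Prdx5 exons, so part of these counts may not be of Prdx5.

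Prdx3, the mitochondrial peroxiredoxin that relies on thioredoxin 2, was at 64.4, 59.8 and 57.4 CPM with vehicle. In the cytokine libraries it was at 53.4, 48.5 and 51.8 CPM, each below the lowest vehicle library. The fall was small, at -0.24 on the log2 scale (SE 0.0664, adjusted p = 0.0037), and 19.4% of all genes changed by less.

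Prdx4, which oxidises protein disulfide isomerases in the ER and so takes part in the folding of secreted proteins, was at 24.9, 28.6 and 23.4 CPM with vehicle. It was at 12.98, 12.85 and 13.25 CPM with cytokines. The cytokine libraries had an SD of 0.203 CPM, and each was below every vehicle library. The log2 fold change was -0.98 (SE 0.101, adjusted p = 1.4e-07). The acinar markers summed to 43.2 CPM in cytokine replicate 1 and to 915 CPM in cytokine replicate 4, and the α, δ and PP cell markers were lower with cytokines, as Prdx4 was. Their part in the level of Prdx4 was not tested.

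The 4 genes of the electron supply all rose, by less than Prdx1. Txn1 was at 57.8, 54.8 and 54.2 CPM with vehicle and at 73.5, 73.1 and 79.8 CPM with cytokines, a log2 fold change of 0.44 (SE 0.0736, adjusted p = 4e-05). Txnrd1 was at 335.3, 323.1 and 310.3 CPM with vehicle and at 402.9, 417.1 and 405.5 CPM with cytokines, a log2 fold change of 0.34 (SE 0.0613, adjusted p = 9.1e-05). Neither gene had a cytokine library within the vehicle range.

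In the mitochondrial pair, Txn2 went from 112.0, 108.9 and 110.3 CPM with vehicle to 164.5, 157.6 and 158.4 CPM with cytokines, with a log2 fold change of 0.54 (SE 0.0497, adjusted p = 3.2e-08). Txnrd2 was at 18.1, 14.0 and 16.5 CPM with vehicle and at 19.6, 19.9 and 22.1 CPM with cytokines. Its groups also did not overlap, but the vehicle libraries spread widely, and the log2 fold change of 0.34 had an adjusted p of 0.0065 (SE 0.102). With upper quartile scaling Txnrd2 lost its call (0.22, adjusted p = 0.061). Of the genes for mitochondrial proteins, Txn2, Txnrd2 and Prdx5 were thus higher with cytokines and Prdx3 was lower.

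**Figure D3:**
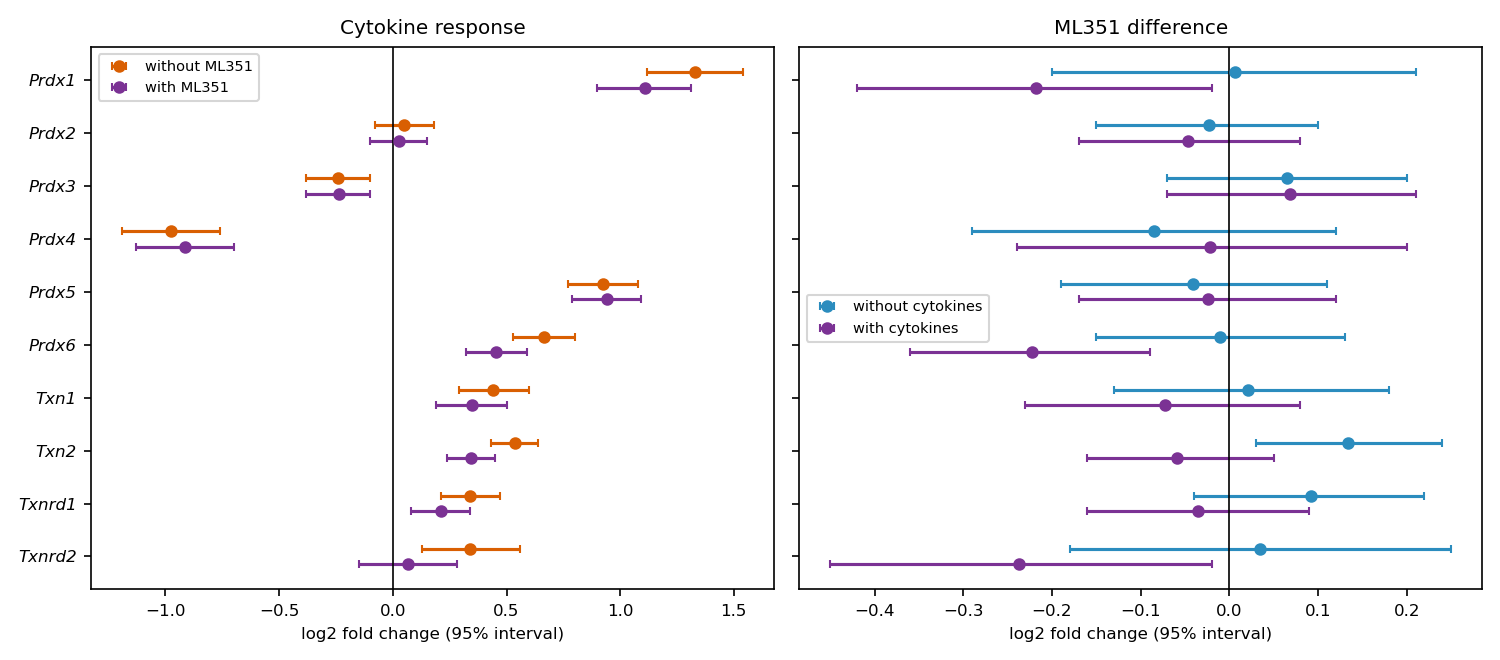
Log2 fold changes (points) with 95% intervals (bars) by edgeR over 12 libraries: at left the difference made by cytokines without and with ML351, at right the difference made by ML351 without and with cytokines, on a narrower axis. The cytokine response is highest for Prdx1 and lowest for Prdx4 both without and with ML351, and the ML351 differences lie between -0.24 and 0.13.

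ML351 alone changed none of the 10 transcripts by the test, in a comparison in which 0.0355% of all genes were called and the groups did not overlap for 15.9%. The log2 fold changes ran from -0.09 (Prdx4) to 0.13 (Txn2), and 1 of the 10 had an unadjusted p under 0.05, as did 8.98% of all genes. DESeq2 called none of them either. Txn2 stood at 119.3, 124.3 and 119.9 CPM in the ML351 libraries, each above the highest vehicle library at 112.0 CPM. Its log2 fold change was 0.13 (SE 0.0496, unadjusted p = 0.0153) and did not pass after adjustment (edgeR adjusted p = 0.39). Txnrd1, at 339.5, 346.6 and 346.4 CPM with ML351, was also above all vehicle libraries, with a log2 fold change of 0.09 (95% interval -0.04 to 0.22, adjusted p = 0.73). For Prdx1 the interval, -0.20 to 0.21, covers changes from 0.872-fold to 1.16-fold.

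With ML351 present, cytokines again raised Prdx1, Prdx5, Prdx6, Txn1, Txn2 and Txnrd1 and lowered Prdx3 and Prdx4. Against ML351 alone, the combination raised 6 of the 10 and lowered 2, where 71.5% of all genes were called, 35.2% higher and 36.4% lower, and groups did not overlap for 74.0%. All 8 had been called in the same direction without ML351, and the 9th gene of that comparison, Txnrd2, was not called here. Without ML351 72.5% of all genes were called, and the share of all genes called alike in both comparisons was not worked out. The group means come from different libraries, but the spread was estimated over all 12, so the calls are not independent of each other. Prdx1 was at 358.3, 320.6 and 370.8 CPM with ML351 and at 684.9, 867.2 and 708.2 CPM with the combination, again without overlap, a log2 fold change of 1.11 (SE 0.0959, adjusted p = 9.6e-08). Prdx4 fell from 23.45, 24.12 and 24.96 CPM with ML351 to 14.7, 11.6 and 12.2 CPM with the combination, a log2 fold change of -0.91 (SE 0.101, adjusted p = 3.5e-07). Prdx5 rose by 0.94, Prdx6 by 0.46, Txn1 by 0.35 and Txn2 by 0.34 on the log2 scale, and Prdx3 fell by 0.24. Txnrd1 rose by 0.21 (adjusted p = 0.0052), a call that ended with upper quartile scaling (0.09, adjusted p = 0.18) and with library totals alone (0.14, adjusted p = 0.12). Prdx2 (0.03, adjusted p = 0.70) and Txnrd2 (0.07, adjusted p = 0.56) did not pass, and their signs turned with these scalings.

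Added to cytokines, ML351 changed none of the 10 by edgeR at the threshold, in a comparison in which 1.43% of all genes were called and groups did not overlap for 20.4%. Of the 10 log2 fold changes, 9 were below 0, but 5 were with library totals alone, and over all genes 51% were above 0. The unadjusted p was under 0.05 for 3 of the genes, Prdx6, Txnrd2 and Prdx1, and for 15.7% of all genes. Prdx6 was at 309.9, 307.5 and 328.2 CPM with cytokines and at 271.0, 297.7 and 241.0 CPM with the combination. All combination libraries were below all cytokine libraries and all were above the vehicle libraries. The log2 fold change was -0.22 (SE 0.0647, 95% interval -0.36 to -0.09, unadjusted p = 0.00311, edgeR adjusted p = 0.099). DESeq2 called it (-0.24, adjusted p = 0.012), as did edgeR without combination replicate 2 (-0.30, adjusted p = 0.042), and adjusted p-values over all alternatives ran from 0.012 to 0.31. The acinar markers were higher in each combination library (1069 to 1585 CPM) than in any cytokine library (43.2 to 915 CPM), and their part in this difference was not tested.

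Prdx1 and Txnrd2 had lower values too, at unadjusted p-values of 0.037 and 0.0329 by edgeR. For Prdx1 the combination libraries, at 684.9, 867.2 and 708.2 CPM, overlapped with the cytokine libraries, at 777.5 to 982.9 CPM, and the log2 fold change was -0.22 (SE 0.0946, adjusted p = 0.28). It was -0.33 without combination replicate 2 and -0.13 without cytokine replicate 4, and it passed in neither. Txnrd2 was at 17.6, 17.3 and 17.3 CPM with the combination, below the cytokine libraries at 19.6 to 22.1 CPM and within the vehicle range of 14.0 to 18.1 CPM. Its log2 fold change was -0.24 (SE 0.102, adjusted p = 0.27). Txn2 too was lower in every combination library (154.7, 152.6 and 154.2 CPM) than in any cytokine library, by a log2 fold change of -0.06 (adjusted p = 0.60). Prdx5, at 105.3, 107.2 and 110.1 CPM, and Prdx4 stayed in the range of the cytokine group or overlapped with it, with log2 fold changes of -0.02 each that turned to 0.03 each with library totals alone. Prdx3 was at 0.07.

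The interaction asks whether the cytokine response differed with ML351. None of the 10 was called, and 0.0071% of all genes, a single gene, were. The unadjusted p was under 0.05 for 8.23% of all genes and for 2 of the 10: Txn2, whose response was smaller by 0.19 on the log2 scale with ML351 (interaction -0.19, SE 0.0700, unadjusted p = 0.0138, adjusted p = 0.47), and Prdx6 (-0.21, SE 0.0917, unadjusted p = 0.0336, adjusted p = 0.58). DESeq2 also called neither. The interaction was -0.27 for Txnrd2 (95% interval -0.58 to 0.03) and -0.23 for Prdx1 (-0.51 to 0.06), and the highest value was 0.06 for Prdx4. Each of these comparisons uses libraries of another one as its control, so the values are set side by side and are not independent of each other.

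The counts of the lists that follow stand beside the 35.3% of all genes that rose with cytokines and the 37.2% that fell, and where a list's shares are near these they are no result about the list. Of 5 genes listed for the repair and the partners of peroxiredoxins, 2 rose and 2 fell with cytokines, close to these shares, with a median log2 fold change of -0.32. Srxn1, sulfiredoxin, which rescues 2-cysteine peroxiredoxins from over-oxidation, was at 195.9, 198.7 and 182.3 CPM with vehicle and at 446.3, 485.4 and 435.8 CPM with cytokines. That is a log2 fold change of 1.25 (SE 0.0755, adjusted p = 1.2e-10) without overlap, close in size to that of Prdx1. Of the sestrins, stress proteins named as partners of the peroxiredoxin cycle, Sesn1 fell from 36.8, 36.1 and 36.9 CPM to 11.8, 8.98 and 9.72 CPM (log2 fold change -1.84, adjusted p = 2.8e-11) while Sesn2 rose (0.55, adjusted p = 3.5e-06). Sesn3 was not called (-0.32, adjusted p = 0.053), although 10 of the 22 alternatives called it, 3 of them by leaving out cytokine replicate 4 (-0.44) or combination replicate 2 (-0.32) or 4 (-0.31). Gstp1, the glutathione transferase that loads glutathione onto Prdx6, went from 394.6, 380.9 and 454.8 CPM to 226.7, 274.6 and 283.7 CPM, a log2 fold change of -0.65 (SE 0.0978, adjusted p = 3.4e-05). The transcripts of Prdx6 and of the transferase that serves it thus moved in opposite directions. With ML351 alone Gstp1 was at 266.0, 279.4 and 289.3 CPM, below all vehicle libraries, with a log2 fold change of -0.56 that missed the threshold (SE 0.0976, edgeR adjusted p = 0.071).

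Transcripts of proteins that bind thioredoxin or take electrons from it were mostly lower: of 9, 1 rose and 6 fell, and the median log2 fold change was -0.38. Txnip, which binds and inhibits thioredoxin, fell by 0.73 (adjusted p = 1.3e-05), and Map3k5, the kinase ASK1 that reduced thioredoxin holds inactive, fell by 1.22 (adjusted p = 1.2e-08). Transcripts of the ribonucleotide reductase subunits, which thioredoxin reduces, fell unequally. Rrm2, of the subunit made in S phase, fell by 2.15, Rrm2b by 0.35 and Rrm1 by 0.25 on the log2 scale. Rrm2 was at 3.32 to 5.56 CPM with vehicle and at 0.589 to 1.46 CPM with cytokines. Among the methionine sulfoxide reductases, Msrb2 of mitochondria fell by 1.45 and Msra rose by 0.29 (adjusted p = 0.023), while Msrb1 (-0.10) and Msrb3 (-0.38) did not pass. The calls of Msra, Rrm1 and Rrm2b ended in 5, 4 and 1 of 22 alternatives. Msra lost its call without vehicle replicate 1 or 4 (0.29 each) or cytokine replicate 4 (0.17), Rrm1 without vehicle replicate 1 or 2 (-0.20 and -0.21) or cytokine replicate 3 (-0.18), and Rrm2b without cytokine replicate 3 (-0.23). With the replicate number as a block Rrm1 was not called (-0.20, adjusted p = 0.075).

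**Figure D4:**
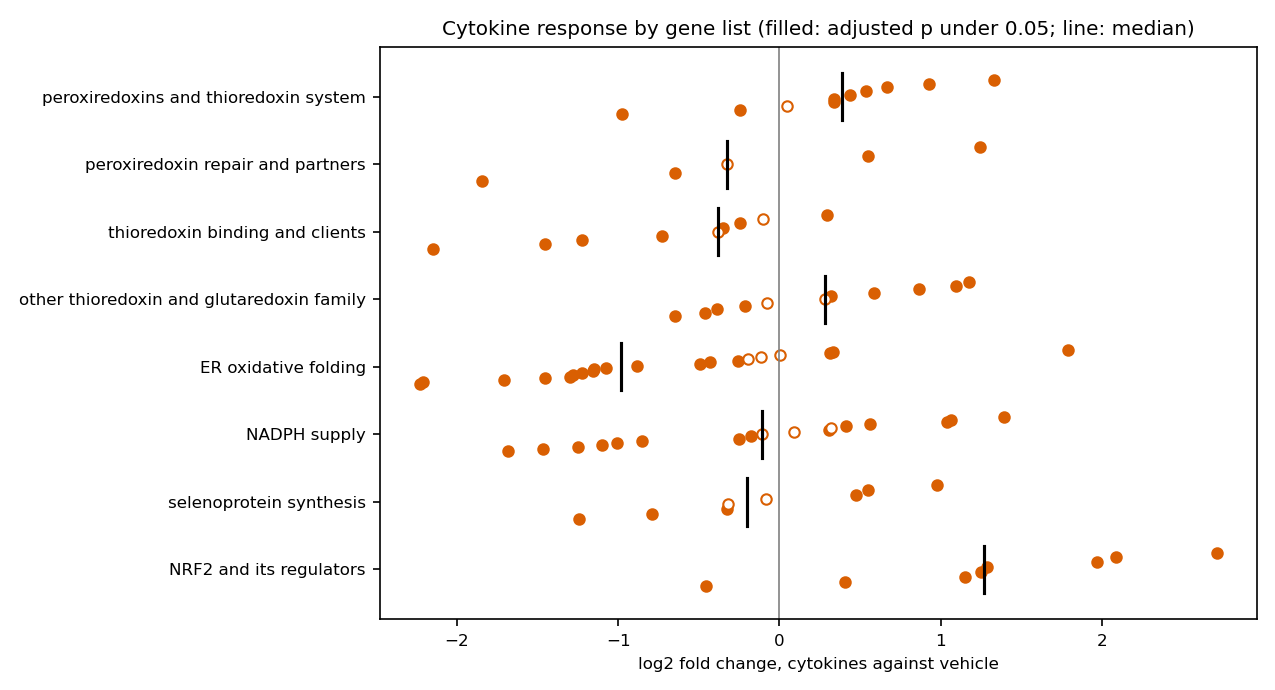
Log2 fold change of each gene, cytokines against vehicle, for the 10 genes (top) and the 7 lists of related genes (points filled where the edgeR adjusted p is under 0.05, black line at the list's median). The NRF2 list has its median at 1.27, the ER oxidative folding list at -0.98, and the other lists lie between -0.38 and 0.39.

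In the wider thioredoxin and glutaredoxin family, 5 of 11 genes rose and 4 fell, not far from the shares over all genes. Gsr, glutathione reductase, which does for glutathione what thioredoxin reductase does for thioredoxin, rose by 1.18 (SE 0.0575, adjusted p = 6.7e-12), from 91.8 to 94.8 CPM with vehicle to 201 to 225 CPM with cytokines. Txndc17, a small thioredoxin-like protein, rose by 1.1 and Txndc9 by 0.59, and Glrx5, the mitochondrial glutaredoxin of iron-sulfur cluster assembly, fell by 0.65. Of the 4 falls 2 were lost with RLE scaling, with DESeq2, with only the groups compared, and without any 1 of the 3 vehicle libraries, ML351 replicate 1, cytokine replicate 1 or combination replicate 1 or 4.

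ER oxidative folding, the pathway that Prdx4 belongs to, for the most part went the way of Prdx4: 14 of 20 genes fell, 3 rose and the median was -0.98. Ero1lb, the ER oxidase of β cells, was at 1367 to 1543 CPM with vehicle and at 302 to 321 CPM with cytokines, a log2 fold change of -2.21 (adjusted p = 2.6e-14). Vkorc1 (-2.23), Txndc5 (-1.45) and Pdia4 (-1.08) also fell, while the other oxidase, Ero1l, rose by 1.79. P4hb was higher too, without overlap (mean 1529 CPM with vehicle, 1898 with cytokines), and Pdia3 was level (1315 and 1317 CPM). Ero1l, P4hb and Pdia3 were named after their values were seen. The summed α, δ, PP, endothelial and stellate cell markers were lower with cytokines too, as given above, and their part was not tested.

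Of 17 genes listed for the supply of NADPH, which both thioredoxin reductases consume, 6 rose and 8 fell, near the shares over all genes. In the cytosolic pentose phosphate pathway Pgd rose by 1.39 and Taldo1 by 1.06, but the pathway did not rise as a whole. G6pdx overlapped between the groups (mean 90.2 CPM with vehicle, 96.0 with cytokines), and Tkt was lower with cytokines (113.9 and 100.8 CPM). G6pdx and Tkt were named after their values were seen. Mthfd2 of mitochondrial folate metabolism rose by 1.04. Idh1, a cytosolic NADPH source, fell by 1.47. Nnt, the mitochondrial transhydrogenase that makes NADPH, fell by 1.68, from 26.5 to 30.6 CPM with vehicle to 7.76 to 10.7 CPM with cytokines. C57BL/6J mice are known to carry a deletion within Nnt, so these counts are of a transcript that does not give the full protein. Idh1 was also the only one of the 78 genes in the 7 lists that edgeR called between the combination and cytokines. Over all genes 1.43% were called there, so 1 of 78 is near that share and no result about the lists. Idh1 was at 35.7, 38.7 and 34.7 CPM with cytokines and higher in each combination library, at 44.8, 48.9 and 43.7 CPM (log2 fold change 0.33, SE 0.0719, adjusted p = 0.034). That call ended in 7 of 22 alternatives, among them leaving out cytokine replicate 1 (0.31, adjusted p = 0.095) or 4 (0.30, 0.12) or combination replicate 1 (0.33, 0.073) or 2 (0.29, 0.10). With ML351 alone edgeR called none of the 78, of which 12 had an unadjusted p under 0.05, and DESeq2 called 1 higher and 2 lower. Over all 14089 genes, edgeR called 0.0355% and gave 8.98% an unadjusted p under 0.05, and DESeq2 called 104.

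Selenoprotein synthesis, on which both reductases depend, had 3 genes higher and 3 lower of 8, as over all genes. Trnau1ap rose by 0.98 and Scly by 0.47, and Sepsecs, the last enzyme in charging the selenocysteine transfer RNA, fell by 1.24 and Sephs1 by 0.79. Of NRF2 and its regulators, which control Prdx1, Srxn1, Txn1 and Txnrd1 in many tissues, 7 of 8 rose and 1 fell, with a median of 1.27. Nfe2l2, which encodes NRF2, went from 37.2, 34.1 and 37.9 CPM to 78.8, 82.4 and 81.4 CPM, a log2 fold change of 1.15 (SE 0.0679, adjusted p = 8.3e-11). Its small MAF partners Maff (2.09), Mafk (1.97) and Mafg (1.25) and the KEAP1-binding Sqstm1 (2.72) rose too. Keap1 (mean 123.4 CPM with vehicle, 163.5 with cytokines) and Bach1 (5.76 and 14.02 CPM) were also higher. Cul3 was the 1 that fell (139.7 and 102 CPM). Keap1, Bach1 and Cul3 were named after their values were seen. The list pools genes that act for and against NRF2, so its count and median do not measure NRF2 activity. With the combination Nfe2l2 was at 62.2, 71.6 and 69.7 CPM, below all cytokine libraries (log2 fold change -0.25, adjusted p = 0.070), and with ML351 alone it was at 30.8, 28.8 and 29.9 CPM, below all vehicle libraries (-0.29, adjusted p = 0.17). Neither difference passed the test.

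Since the antioxidant response element, the DNA motif that NRF2 binds, is known from genes of this system, the start sites were searched for its core. RefSeq windows on GRCm38.p6, from 250 bases before to 50 after each annotated start, were available for 9 of the 10 genes, 11 windows in all, and Prdx6 was not among them. The core TGACNNNGC, on either strand, was found in 2 of the 11 windows, that of Prdx1 and the second of the 3 of Txnrd1, and in 12.4% of 32851 windows of all genes. Both stretches are shown on the plus strand, on which the genes also lie, with the core in capitals, here in its reverse orientation. The core lies 125 to 133 bases before the start in Prdx1 and 84 to 92 bases before it in Txnrd1.
Prdx1, chr4:116685416-116685524: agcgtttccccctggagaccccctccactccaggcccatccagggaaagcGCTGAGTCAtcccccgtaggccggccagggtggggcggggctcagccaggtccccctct
Txnrd1, chr10:82859064-82859172: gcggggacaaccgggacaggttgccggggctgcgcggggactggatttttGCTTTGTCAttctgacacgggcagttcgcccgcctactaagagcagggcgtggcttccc

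The match in Prdx1 also holds the letters TGAGTCA, the usual site of AP-1, and that in Txnrd1 does not. GGGNNNNNCC, the core of NF-κB sites, was in 9 of 11 windows and in 50.8% of all windows. GAAANNGAAA, the core of the interferon-stimulated response element, was in 0 of 11 windows and in 3.44% of all. A match is a run of letters and not a binding site, and its absence says only that the letters are not in these windows.

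Across the 12 libraries, the members closest to each other in pattern were Txn1 and Txnrd1, whose centred log2 CPM differed by a root mean square of 0.08, and then Txn1 and Txn2 (0.10). The farthest were Prdx1 and Prdx4 (1.09). Among 8626 genes whose average log2 CPM was 3 or more, the nearest to Prdx1 were Tcp11l1 (0.10) and Ubxn1 (0.10), to Prdx4 Lancl2 (0.07) and Ptprm (0.08), and to Prdx5 Gnb2l1 (0.06), a ribosomal scaffold protein, and Eif3e (0.06), a subunit of a translation initiation factor. Prdx2 was nearest to Oard1 (0.05) and Laptm4b (0.05), Prdx3 to Lrrc57 (0.05) and Rrm1 (0.06), and Prdx6 to Csnk2b (0.06) and Eef1d (0.06). Txn1 was nearest to Pex5 and Lsm14a (0.06 each), Txn2 to Psmd2 (0.04), a proteasome subunit, and Agpat3 (0.04), Txnrd1 to Sypl (0.05) and Uckl1 (0.06), and Txnrd2 to Pigu and Ndufs7 (0.08 each). These distances describe likeness over 12 libraries that share 4 treatments.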

How the data were processed

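RNA of 12 islet libraries was measured. Per the labels' protocols they were made with the SMARTSeq v4 kit without strand. The deposited values are raw counts per gene symbol, 1 column per library, made by the authors. Software listed in the submitters' processing notes is DESeq2, FastQC, featureCounts, STAR and Subread, with build mm10 and no versions. Annotation and filter: not given in the sources used here.

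Groups came from the treatment labels. In no group did 2 libraries match within sampling noise. Counts were tested with edgeR 4.0.16 in R 4.3.3 (TMM scaling, filterByExpr, which removed no gene, robust quasi-likelihood fit over 12 libraries with 4 group means). Contrasts were the 4 between single treatments and the interaction. Adjusted p is Benjamini-Hochberg over 14089 genes, called under 0.05. SE is |log2 fold change| over the root of F. CPM are counts scaled to TMM library sizes. Alternatives, 22 in number, included DESeq2 1.42.0 and voom of limma 3.58.1. Of the symbols, 13563 were found once in GENCODE M21.

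The members and the 7 lists were chosen with earlier results of these data known. Named genes were all members, all genes of the lists of peroxiredoxin repair and of thioredoxin binding, up to 4 genes of each other list with the smallest p for cytokines, Nnt, Nfe2l2, and the 2 genes nearest in pattern to each member. Of the motif cores searched, 1 is not reported here.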

Additional observations from a re-analysis of the deposited data

How the results depend on the processing

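Of the 10 genes, 7 rose and 2 fell with cytokines under all 22 alternatives except upper quartile scaling, where Txnrd2 lost its call; with ML351 present 6 rose and 2 fell, except that Txnrd1 lost its call with upper quartile scaling and with library totals alone. Upper quartile scaling moved the median of all genes by -0.12 on the log2 scale in both cytokine comparisons. Signs of the 10 genes turned only where the value was not called. With upper quartile scaling and library totals these were Prdx2 for cytokines (-0.072, -0.015) and Prdx2 (-0.092, -0.052) and Txnrd2 (-0.050, -0.008) for the combination against ML351. With library totals alone, Prdx2 (0.042), Prdx5 (0.026) and Prdx6 (0.052) turned for ML351 alone, and Prdx2 (0.005), Prdx4 (0.026), Prdx5 (0.028) and Txnrd1 (0.017) for the combination against cytokines. Prdx1 turned for ML351 alone (-0.002 with RLE scaling and DESeq2, -0.005 with upper quartile scaling) and Prdx3 for the interaction (-0.005 with RLE scaling and DESeq2, -0.010 with library totals). Leaving out 1 library at a time gave, for ML351 alone, -0.038 to 0.066 for Prdx1, -0.066 to 0.013 for Prdx2, -0.145 to 0 for Prdx4, -0.089 to 0.011 for Prdx5, -0.031 to 0.008 for Prdx6 and -0.058 to 0.122 for Txnrd2. For the combination against cytokines it gave -0.154 to 0.049 for Prdx4, -0.078 to 0.049 for Prdx5 and -0.084 to 0.020 for Txnrd1, and for the interaction -0.064 to 0.020 for Prdx2, -0.044 to 0.039 for Prdx3, -0.061 to 0.138 for Prdx4 and -0.035 to 0.089 for Prdx5. DESeq2 called 1 of the 10 lower with the combination than with cytokines, Prdx6, and leaving out 1 library at a time gave 0 to 1.

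Over all genes, the 5 calls of ML351 alone became 0 with RLE scaling, 2 with upper quartile scaling, 104 with DESeq2, 16 with only the groups compared and 0 to 17 without 1 library. The 202 calls between the combination and cytokines became 78 with library totals, 521 with DESeq2, 59 with only the groups compared and 54 to 236 without 1 library. Of them 45% were higher, 71.8% with library totals and 33.3% with RLE scaling. The 1 interaction call became 0 with library totals and voom, 44 with DESeq2 and 0 to 1 without 1 library.

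Replicate numbers did not pair the libraries: of 13 pairs with the same number, 2 had deviations correlated over 0.1 (range -0.377 to 0.202). A replicate block gave 0 calls for ML351 alone, 53 for the combination against cytokines and 0 for the interaction, and the same counts of the 10 genes called in each comparison. With the replicate block the sign turned for Prdx5 between the combination and cytokines (0.002) and for Prdx2 (0.003) and Prdx3 (-0.002) in the interaction. The cause of these shifts was not tested.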

Other observations

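GENCODE M21 annotates Prdx6b, Prdx6-ps2 and Prdx2-rs3, near copies of Prdx6 and Prdx2. None of them has a row in the count table, and how reads shared with a copy were counted is not given in the sources used here, so the levels of Prdx6 and Prdx2 are uncertain to that extent.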
